A study of Populus davidiana with 6 samples.

Results

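The 667 regions described here are stretches of genome in which transcripts were assembled from aspen leaf RNA, but which held no known transcript and lay wholly between known genes. A region was kept when every transcript assembled in it was marked as new, when it spanned at least 300 bp, and when it shared no base, on either strand, with the span of any gene holding a known transcript. They are 30.9% of the 2158 loci without a known transcript and 1.65% of the 40537 genes and loci listed. The remaining loci without a known transcript were 916 shorter ones between known genes, 506 of at least 300 bp that overlap a known gene, and shorter overlapping ones.

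The samples were leaves of Populus davidiana, an aspen. All came from the cultivar Seogwang9, labelled as tolerant to drought. Plants grown from internode culture were about 6 weeks old, and the labels give the stage as seedling. The treated group, 3 libraries, came from plants uprooted from the medium, rinsed, and then exposed to open air for some 10 minutes, and is called air-dried here. The other 3 libraries are labelled control, and the labels do not say whether those plants were also lifted and rinsed. No label says that the 3 libraries of a group stem from different plants, so the spread behind each p-value may be technical. Leaf markers could not be looked up, because the accessions are not paired with gene names in the files.

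In plants, as in animals, RNA is made from many places that a genome annotation does not list. Such places include genes that annotators missed, long non-coding RNAs (transcripts that carry no long reading frame), transposable elements, and ends of genes that an assembler did not join to the gene. Some long non-coding RNAs of plants are known to respond to drought and to act on neighbouring genes. The assembler named in the submitters' processing notes, Cufflinks, usually leaves the strand open where no intron shows the direction of transcription. None of these kinds can be told apart from the files, which hold positions and levels but no sequence. The accessions of the known genes are those of Populus trichocarpa, so positions are in that species' coordinates, printed as deposited, and no label or file header names the build.

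The regions with an assigned strand were longer and more complex than those without. A strand was assigned to 348 of them, 184 on the plus and 164 on the minus strand, and 319 were listed without a strand. Loci with a strand had a median span of 957 bp and reached 13878 bp, and 105 of them held 2 or more transcripts. Loci without a strand had a median span of 456 bp, none was longer than 2267 bp, and each held a single transcript. Over all 667 loci the median span was 612 bp, against 2367 bp for known genes, and 15.7% held more than 1 transcript, against 47.1% of known genes. Chromosomes 1 to 19 carried 588 loci and small scaffolds carried 79. The density was highest on chromosome 8, with 53 loci or 24.8 per 1000 known genes, and lowest on chromosome 16, with 12 loci or 9.13 per 1000.

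The most complex loci were long and carried a strand. On chromosome 4, 2 plus-strand loci (8948687 to 8950953 and 13548625 to 13554482) held 11 transcripts each, the most of any. The longest locus, on the minus strand of chromosome 5 (11874563 to 11888440), was a single transcript of 13878 bp. Its level was 29.5, 24.1 and 26.8 FPKM in the air-dried libraries and 32.6, 31.4 and 32.4 FPKM in the controls. FPKM counts fragments per kilobase of transcript, scaled to the size of the library, and the FPKM of a locus is the sum over its transcripts. All 3 air-dried values lay below the controls, but the difference did not pass the threshold (log2 fold change -0.26, limma adjusted p = 0.1237). At the other end, 1 locus on chromosome 4 (9090395 to 9090694) measured exactly 300 bp and was listed at 0 in every library. Just outside the limit lay 3 loci of 299 bp, whose means over the 6 libraries were 0, 3.26 and 19.1 FPKM. In 93 loci with several transcripts and a mean of at least 1 FPKM, the same transcript led in all 6 libraries in 34 (36.6%). In 1 of them the leading transcript differed between the groups and was shared within each, and in 3 it differed in this way between 2 sets of libraries described below.

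The gap to the nearest known gene had a median of 1450 bp over the 634 loci that share a chromosome or scaffold with one. It ranged from 7 bp, on chromosome 16 (7192624 to 7193912), to 70097 bp, on scaffold 34 (6998 to 12128). A further 33 loci lay on scaffolds without any known gene. Loci without a strand sat mostly on the upstream side of their neighbour when they were close to it. Of 135 such loci with a gap under 2000 bp, 120 (88.9%) lay before the start of the gene and 15 after its end. At gaps of 2000 bp or more the counts were 85 before and 80 after. Loci with a strand were split more evenly, with 105 before and 122 after the gene at gaps under 2000 bp. Of these 227, 143 ran on the strand of the neighbour and 84 on the opposite strand.

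**Figure D1:**
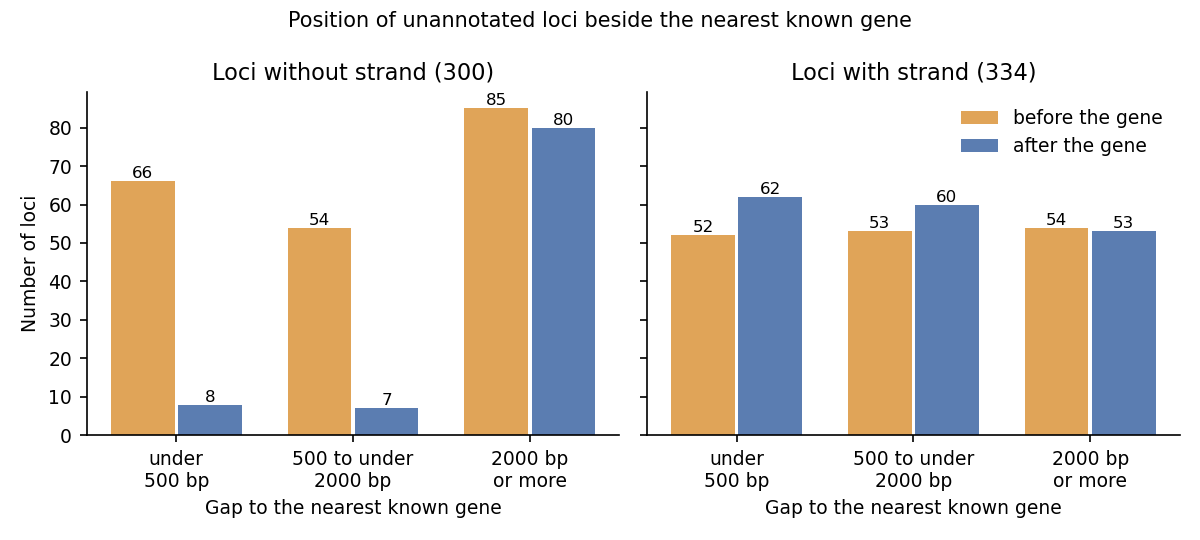
Number of loci (vertical axis) by gap to the nearest known gene (horizontal axis), with orange bars for loci before the start of that gene and blue bars for loci after its end, counted from the deposited strand of the gene. Close loci without a strand lay before the gene in 120 of 135 cases, while loci with a strand lay on either side in like numbers.

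Most of the regions gave signal in every library. In the air-dried libraries 546, 539 and 552 of the 667 loci were above 0, and in the controls 556, 562 and 570. All 6 libraries had a value above 0 at 459 loci, 155 loci were above 0 in some libraries, and 53 were listed at 0 throughout. Values between 0 and 0.001 FPKM occurred at 7 loci and count as above 0 here. The median level was 2.30, 1.75 and 1.99 FPKM in the air-dried libraries and 2.28, 2.71 and 2.16 FPKM in the controls, so the groups overlapped. A mean of at least 1 FPKM was reached by 67.9% of the loci, by 77.5% of the loci that overlap a known gene, and by 54.5% of known genes. The classes were listed on different grounds, assembled loci from reads and known genes from an annotation. The 53 loci listed at 0 throughout compare with 25.7% of known genes listed at 0 in all 6 libraries. Whether the grounds of listing account for the differing shares was not tested. High levels were less common, with 18.9% of the loci and 31.4% of known genes at a mean of at least 10 FPKM. Loci with a strand reached 1 FPKM in 78.4% of cases and those without in 56.4%.

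**Figure D2:**
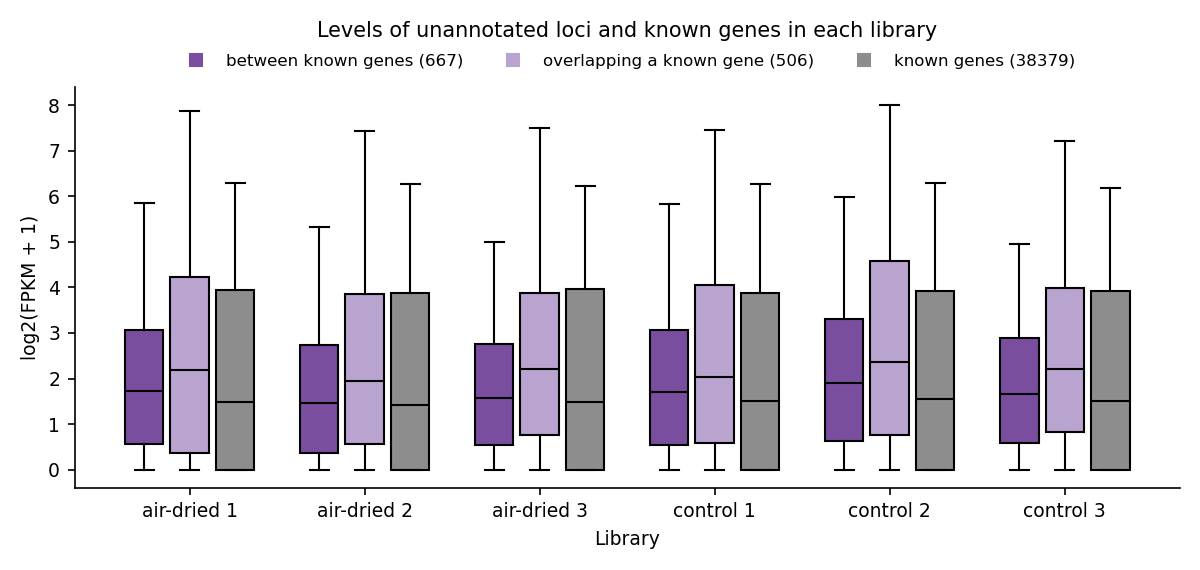
Levels as log2(FPKM + 1) in each library (horizontal axis) for the 667 loci between known genes, 506 unannotated loci overlapping a known gene and 38379 known genes. Boxes span the quartiles with the median as a line, whiskers run from the 5th to the 95th percentile, and the loci between known genes have a higher median but a lower upper quartile than known genes in each library.

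A mean of at least 100 FPKM was reached by 16 loci, which all carried a strand and had a median span of 590.5 bp. None of them passed the threshold for the treatment, and most varied widely between libraries, with the exception of a steady locus on chromosome 7 given below. The highest mean belonged to a plus-strand locus of 1256 bp on chromosome 18 (7843159 to 7844414), and it came from a single library. This locus had 19684 FPKM in control 3 and was listed at 0 in the other 5 libraries. A minus-strand locus of 348 bp on chromosome 17 (783549 to 783896) had 3502, 1219 and 3991 FPKM in the air-dried libraries and 488, 3764 and 1097 FPKM in the controls. Its groups overlapped across most of their range. On scaffold 496 (4888 to 5642) the values were 668, 2777 and 3397 FPKM after drying and 281, 1908 and 1388 FPKM in the controls. On chromosome 4 (4232641 to 4233529) they were 1451, 576 and 698 FPKM after drying and 238, 1818 and 208 FPKM in the controls. Neither locus separated the groups. The nearest to a difference was a minus-strand locus of 2565 bp on chromosome 1 (14614508 to 14617072), with 338, 213 and 507 FPKM after drying and 2328, 1946 and 579 FPKM in the controls. The groups did not overlap, but the log2 fold change of -2.05 (SE 0.597) missed the threshold (limma adjusted p = 0.08084). A second unannotated locus overlaps it on the same strand, so reads of the 2 may not have been told apart.

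A few regions were steady across all libraries. A plus-strand locus of 2568 bp on chromosome 7 (1048153 to 1050720) had 188, 184 and 188 FPKM in the air-dried libraries and 196, 205 and 189 FPKM in the controls. Its standard deviation over the 6 libraries was 0.0572 on the log2(FPKM + 1) scale, the smallest among loci with a mean of at least 5 FPKM. It lies 61 bp before a known gene on the same strand, which was listed at 0 in all libraries. On chromosome 13 (13452322 to 13456524) a minus-strand locus had 21.1, 21.4 and 19.5 FPKM after drying and 20.7, 18.3 and 18.7 FPKM in the controls. Without regard to span, the regions were more variable than known genes. The median standard deviation within groups was 0.426 for the 453 loci with a mean of at least 1 FPKM. For known genes it was 0.137, on the same scale. At like spans the classes were closer. For 300 to under 400 bp the median standard error of the log2 fold change was 0.438 for loci and 0.435 for known genes. For 2000 bp or more it was 0.181 and 0.107.

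Short loci differed between 2 sets of libraries that cross the groups. Set B holds air-dried 2, air-dried 3 and control 3, and set A holds air-dried 1, control 1 and control 2. The sets are known from earlier results of these data, and no label names them. Loci spanning 300 to under 400 bp differed between the sets by a median log2 value of -0.50 over 115 loci (B minus A), those of 400 to under 600 bp by -0.295 (107 loci), and those of 2000 bp or more by 0.0167 (70 loci). Known genes of the same spans moved by -0.612, -0.29 and 0.0277. The difference between sets passed the limma threshold at 15 loci (3.31%), all lower in set B. Of all 22356 genes and loci tested, 0.989% were called between the sets and 0.814% were called lower in set B. Short known genes were called more often than that. At 300 to under 400 bp the share was 7.83% of loci and 7.26% of known genes. At 400 to under 600 bp it was 1.87% and 4.14%, and at 600 to under 1000 bp 1.1% and 1.8%. Loci were called more often than known genes at 1000 to under 2000 bp, with 4.29% (3 of 70 loci) and 0.643%. From 2000 bp upwards the shares were 0% and 0.436%. Because the sets were drawn from these same values, the calls between them are a description and not an independent test. At a minus-strand locus of 369 bp on chromosome 1 (17002564 to 17002932) set B had 296, 272 and 175 FPKM and set A 947, 841 and 992 FPKM. At a locus of 1768 bp on chromosome 17 (7347981 to 7349748) set B had 22.7, 24.96 and 29.97 FPKM and set A 62.6, 86.1 and 95.4 FPKM. In both, all values of set B lay below those of set A, while each set holds libraries of either group. The group comparisons below are therefore also given with the set as a term wherever that ends a call.

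**Figure D3:**
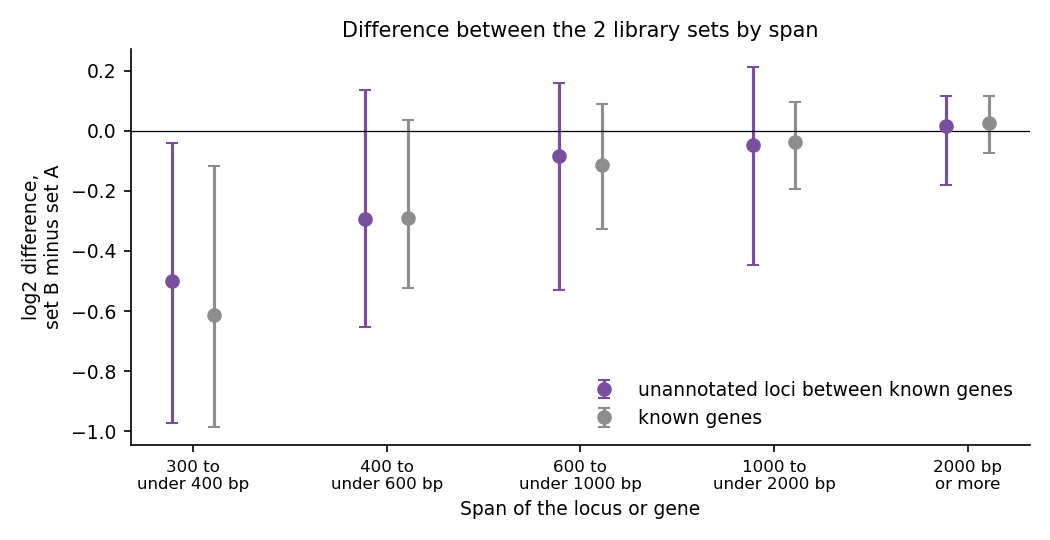
Median difference in log2(FPKM + 1) of set B from set A (vertical axis) by span (horizontal axis), for unannotated loci between known genes (purple) and known genes (grey), with bars from the lower to the upper quartile of loci. The medians lie at -0.50 and -0.612 for spans of 300 to under 400 bp and near 0 from 2000 bp upwards.

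The comparison of air-dried and control leaves asked which of the regions changed after about 10 minutes of drying. Of the 667 loci, 453 had a mean of at least 1 FPKM and were tested, together with all other genes and loci above that level. Values were compared as log2(FPKM + 1) with limma, two-sided, with Benjamini-Hochberg adjustment over all 22356 genes and loci tested and a threshold of 0.05. In air-dried leaves 11 loci rose and 17 fell, together 6.18% of those tested, where 13.0% of all genes and loci tested were called, 5.6% as higher and 7.44% as lower. Loci that overlap a known gene were called in 4.34% of 392 cases and known genes in 13.6% of 20917. When known genes were weighted to the levels and spans of the 453 loci, the share called among them was 12.3%. The median standard error of the log2 fold change was 0.291 among the loci and 0.113 among known genes. The median spans of these tested loci and genes were 609 bp and 3683 bp. At an unadjusted p under 0.05, 82 loci passed, or fewer per locus tested than the 27.1% of all genes and loci. The median log2 change was -0.158 over the tested loci and 0.00801 over everything tested, and it was -0.075 over the loci when the set was a term. A change of at least 2-fold was called at 16 of the 453 loci, 5 higher and 11 lower. Of everything tested 3.08% was called at that size, 356 higher and 332 lower. In 33 loci all air-dried values lay above the controls, where this held for 15.9% of everything tested, and in 58 all lay below, where it held for 16.8%. The groups did not overlap at any of the 28 called loci, nor at any of the 2916 genes and loci called over everything tested.

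The calls changed when single libraries were left out, which leaves fewer libraries for every gene and locus. Of 138 such values at the 23 loci given below, 72 kept the call, 66 lost it and 0 changed direction. Without 1 library at a time 5 to 8 loci were higher and 6 to 23 lower. Calls over everything tested also dropped, to 657 to 890 higher and 824 to 1125 lower. With all libraries these were 1253 and 1663. The count of higher loci moved by more than 1.5 times without air-dried 1 (6), air-dried 2 (5), air-dried 3 (7), control 1 (5) or control 2 (5), and that of lower loci without air-dried 2 (11), air-dried 3 (11) or control 2 (6). Adding the set as a term gave 11 higher and 22 lower loci. In that fit 12.3% of everything tested was called, 5.41% as higher and 6.92% as lower. Of the 28 loci, 22 were past the threshold in both fits. Of the 23 loci given below, 7 stayed past the threshold in every alternative that tested them, and they are described before the others.

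**Figure D4:**
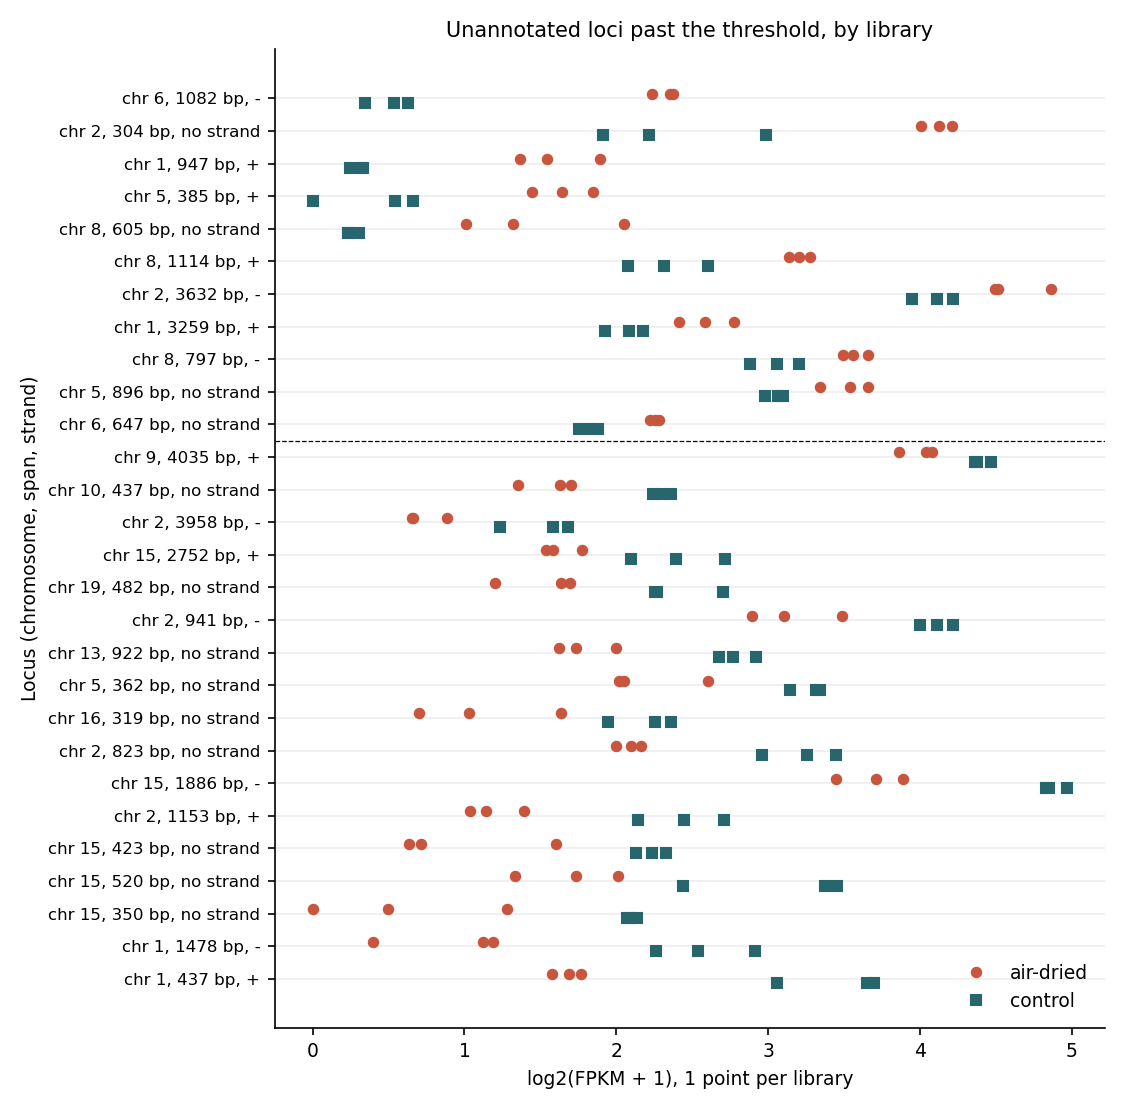
Level as log2(FPKM + 1) (horizontal axis, 1 point per library) at the 28 loci past the threshold (rows, named by chromosome, span and strand), with air-dried libraries as circles and controls as squares. The 11 loci above the dashed line were higher and the 17 below it lower in air-dried leaves. The groups do not overlap in any row, as at all 2916 genes and loci called over everything tested.

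The strongest rise was a minus-strand locus of 1082 bp on chromosome 6 (1056792 to 1057873). It had 3.72, 4.19 and 4.12 FPKM in the air-dried libraries and 0.452, 0.544 and 0.271 FPKM in the controls. Every control lay below 1 FPKM and every air-dried value above 3. The log2 fold change was 1.82 (SE 0.119, limma adjusted p = 0.0006469), and since the controls lie under the pseudocount of 1 FPKM it became 3.01 with a pseudocount of 0.1. A short locus of 304 bp without a strand on chromosome 2 (14759049 to 14759352) had 17.5, 15.1 and 16.5 FPKM after drying and 3.65, 2.76 and 6.92 FPKM in the controls. Its air-dried values were close together and more than 2-fold above the highest control, with a log2 fold change of 1.74 (SE 0.271, limma adjusted p = 0.01145). On the plus strand of chromosome 1 (40731804 to 40732750), a locus of 947 bp had 2.72, 1.57 and 1.92 FPKM after drying and 0.259, 0.245 and 0.185 FPKM in the controls. The log2 fold change was 1.30 (SE 0.167, limma adjusted p = 0.005742). These 3 loci were the only rises to pass the threshold in every alternative that tested them.

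Among the falls, the largest with a pseudocount of 1 was a plus-strand locus of 437 bp on chromosome 1 (25193642 to 25194078), with 2.41, 1.98 and 2.23 FPKM in air-dried leaves and 11.6, 11.96 and 7.33 FPKM in controls. The air-dried values were nearly equal and all below the lowest control, and the log2 fold change was -1.79 (SE 0.186, limma adjusted p = 0.002738). With a pseudocount of 0.1 its log2 fold change was -2.14, smaller in size than the -2.98 and -2.48 of less abundant falls on chromosome 15 (14687748 to 14688097) and chromosome 1 (1862726 to 1864203). The most abundant of the stable falls was a minus-strand locus of 1886 bp with 4 transcripts on chromosome 15 (14690378 to 14692263). It had 13.8, 9.92 and 12.1 FPKM after drying and 27.5, 30.3 and 27.8 FPKM in the controls, a log2 fold change of -1.20 (SE 0.124, limma adjusted p = 0.002677). A locus of 823 bp without a strand on chromosome 2 (13515106 to 13515928) had 3.28, 2.99 and 3.47 FPKM after drying and 6.78, 8.56 and 9.93 FPKM in the controls. Its log2 fold change was -1.14 (SE 0.139, limma adjusted p = 0.004883). The last of the 7, a locus of 922 bp without a strand on chromosome 13 (12998395 to 12999316), had 3.00, 2.08 and 2.33 FPKM after drying and 5.40, 5.81 and 6.57 FPKM in the controls. Its log2 fold change was -1.002 (SE 0.129, limma adjusted p = 0.005945). In these 4 falls the groups were separated by a clear gap in level.

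The other 8 rises were past the threshold in the comparison of all 6 libraries but lost it when single libraries were left out. The largest were 2 loci that were near or at 0 in controls. A plus-strand locus of 385 bp on chromosome 5 (25397618 to 25398002) had 2.12, 2.60 and 1.72 FPKM after drying and 0.457, 0 and 0.578 FPKM in the controls (log2 fold change 1.24, limma adjusted p = 0.01676). Without air-dried 1 or air-dried 2 it missed the threshold, with adjusted p values up to 0.0609. An unannotated locus on the opposite strand (25397617 to 25398091) covers all of it. A locus of 605 bp without a strand on chromosome 8 (9284125 to 9284729) had 3.14, 1.49 and 1.02 FPKM after drying and 0.177, 0.177 and 0.238 FPKM in the controls (log2 fold change 1.20, limma adjusted p = 0.03924). It missed the threshold without air-dried 2 or any single control, with adjusted p values up to 0.116. On chromosome 8 a plus-strand locus of 1114 bp (12390682 to 12391795) had 8.67, 7.81 and 8.21 FPKM after drying and 3.23, 3.99 and 5.09 FPKM in the controls (log2 fold change 0.87, limma adjusted p = 0.01374). It missed the threshold without air-dried 1, air-dried 3 or control 2, with adjusted p values up to 0.0593.

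The 5 smallest rises had log2 fold changes of 0.44 to 0.53, and the groups did not overlap, as at every called locus. The most abundant was a minus-strand locus of 3632 bp on chromosome 2 (7896638 to 7900269), with 21.6, 21.9 and 28.1 FPKM after drying and 14.4, 16.3 and 17.6 FPKM in the controls. The others lay on chromosome 1 (8970562 to 8973820), chromosome 8 (5423842 to 5424638), chromosome 5 (8305443 to 8306338) and chromosome 6 (4257435 to 4258081). Those on chromosomes 1, 2 and 6 missed the threshold whichever of the 6 libraries was left out, with adjusted p values up to 0.14. The locus on chromosome 8 missed it whichever library but control 2 was left out (up to 0.0832), and that on chromosome 5 whichever but air-dried 1 was (up to 0.104). With the set as a term the loci on chromosomes 1, 2 and 5 had adjusted p values of 0.0717, 0.0658 and 0.06379 (limma).

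Among the other falls, a plus-strand locus of 1153 bp with 2 transcripts on chromosome 2 (13513317 to 13514469) had 1.05, 1.21 and 1.62 FPKM after drying and 5.54, 4.44 and 3.41 FPKM in the controls. Its log2 fold change was -1.24 (SE 0.178, limma adjusted p = 0.008748). It stayed past the threshold whichever library was left out, but its more abundant transcript alone gave an adjusted p of 0.07549. A minus-strand locus of 1478 bp on chromosome 1 (1862726 to 1864203) had 1.28, 0.318 and 1.17 FPKM after drying and 3.8004, 4.82 and 6.55 FPKM in the controls (log2 fold change -1.67, limma adjusted p = 0.01293). It missed the threshold without control 2 (adjusted p = 0.0528), and an unannotated locus on the opposite strand covers most of it.

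A further 6 falls of about 2-fold or more lost their call when some of the single libraries were left out. A locus of 423 bp on chromosome 15 (7235449 to 7235871) had 2.03, 0.55 and 0.638 FPKM after drying and 4.03, 3.37 and 3.71 FPKM in the controls (log2 fold change -1.25, limma adjusted p = 0.03352). A locus of 362 bp on chromosome 5 (2760863 to 2761224) had 5.07, 3.06 and 3.15 FPKM after drying and 9.14, 8.98 and 7.83 FPKM in the controls (log2 fold change -1.04, limma adjusted p = 0.01461). The groups were apart at both loci, as at every called locus, and neither had a strand. A locus of 319 bp on chromosome 16 (179616 to 179934) had 1.04, 2.10 and 0.623 FPKM after drying and 3.77, 4.13 and 2.85 FPKM in the controls (log2 fold change -1.06, limma adjusted p = 0.04789). A minus-strand locus of 941 bp on chromosome 2 (20625896 to 20626836) had 7.59, 10.2 and 6.44 FPKM after drying and 17.6, 15.0 and 16.3 FPKM in the controls (log2 fold change -0.95, limma adjusted p = 0.01567). An unannotated locus on the opposite strand shares 679 bp with it. The other 2 of the 6 lie in the chromosome 15 cluster described next. The call was lost at the locus on chromosome 15 when any library but air-dried 1 was left out (adjusted p up to 0.109), and at that on chromosome 16 when any but air-dried 2 was (up to 0.15). It was lost at the locus on chromosome 5 without air-dried 2, air-dried 3, control 1 or control 2 (up to 0.063), and at that on chromosome 2 without air-dried 1 or any single control (up to 0.0621). With the set as a term the locus on chromosome 16 had an adjusted p of 0.08645 (limma). The remaining 5 falls, on chromosomes 2, 9, 10, 15 and 19, had log2 fold changes of -0.90 to -0.41. Of these, the falls on chromosomes 9 and 19 missed the threshold whichever library was left out (adjusted p up to 0.0884). The one on chromosome 2 missed it whichever but control 2 was (up to 0.0987), and the one on chromosome 15 whichever but control 3 was (up to 0.122). The one on chromosome 10 missed it only without control 2 (0.0596). The fall on chromosome 19 (1605315 to 1605796) also had an adjusted p of 0.05654 with the set as a term (limma).

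Called loci lay close together at 2 places. Regions within 5000 bp of each other with no known gene between them were grouped, which gave 60 clusters holding 128 loci, and 32 of the clusters had 2 or more tested loci. In 2 clusters more than 1 locus was called, and in both every locus fell. On chromosome 15 (14687748 to 14692263) the cluster holds the 4-transcript locus given above and 2 loci without a strand. The locus of 350 bp (14687748 to 14688097) had 1.42, 0.414 and 0 FPKM after drying and 3.21, 3.39 and 3.25 FPKM in the controls (log2 fold change -1.51, limma adjusted p = 0.03024). The locus of 520 bp (14689737 to 14690256) had 2.33, 1.52 and 3.04 FPKM after drying and 4.43, 9.39 and 9.97 FPKM in the controls (log2 fold change -1.40, limma adjusted p = 0.03877). Both short loci thus fell beside the longer one. The shorter lost its call when any library but air-dried 1 was left out (adjusted p up to 0.101). The other lost it when any but control 1 was (up to 0.129) and had an adjusted p of 0.0519 with the set as a term. The known gene 3822 bp to the left of the cluster had 8.36 ± 1.25 FPKM after drying and 8.95 ± 0.966 FPKM in the controls (SD, n = 3 each), and its change did not pass the threshold (log2 fold change -0.09, limma adjusted p = 0.7039). The known gene 6380 bp to the right was listed at 0 in all libraries. The second cluster, on chromosome 2 (13513317 to 13515928), holds the 2 falling loci given above, and the nearest known gene, 5669 bp away, was also listed at 0.

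Overlap between the loci themselves was rare. In 18 pairs 2 of the loci shared bases, 9 of the pairs on opposite strands and 8 with at least 1 locus lacking a strand. Both loci were tested in 11 pairs, and in none were both called. Of 5 opposite-strand pairs with both loci tested, 2 changed in the same direction. No label says that the libraries keep the strand, so the reads of such pairs may not have been separated.

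Whether a locus changed along with the known gene beside it was examined at 288 loci where both had a mean of at least 1 FPKM. Over loci under 500 bp before the start of the gene, the log2 changes had a Pearson r of 0.479 (79 loci, 0.426 with the set as a term). Over loci under 500 bp after the end of the gene r was -0.0157 (40 loci). At gaps of 2000 bp or more r was 0.0668 (92 loci). On the same strand, at gaps under 2000 bp before the gene, r was 0.542 (44 loci, 0.444 with the set as a term). On the opposite strand it was 0.503 (17 loci, 0.608 with the set as a term). For loci without a strand at such gaps it was lower, 0.349 (57 loci, 0.259 with the set as a term). These values describe loci and genes that share the same 6 libraries, the same contrast and a common scaling, so they are not independent points, and the difference between the sides was not tested.

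**Figure D5:**
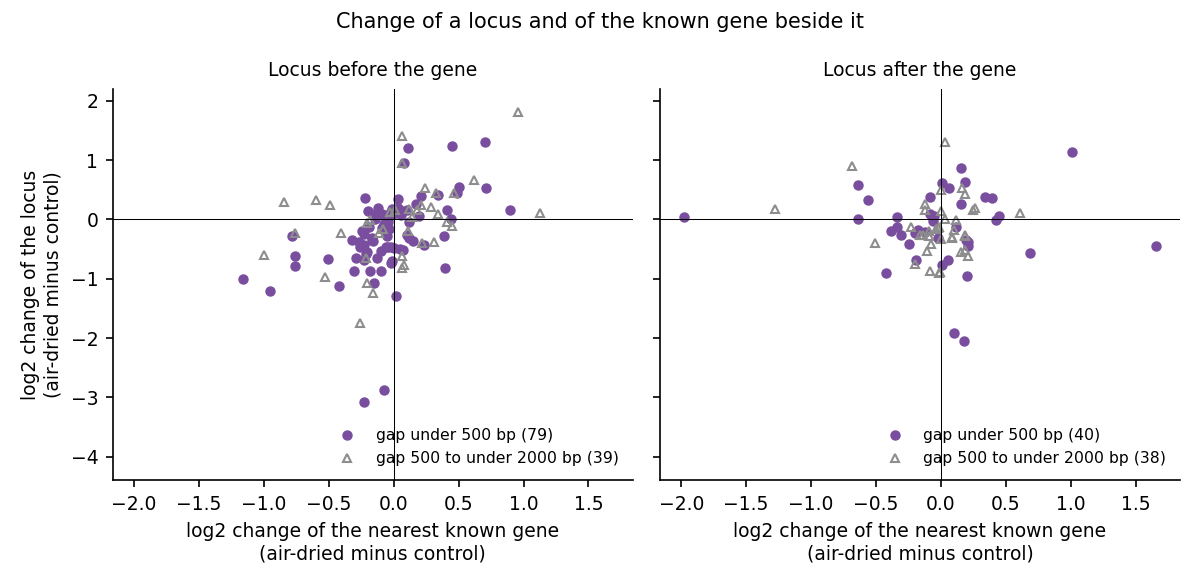
Log2 change (air-dried minus control, log2(FPKM + 1)) of each locus (vertical axis) against that of its nearest known gene (horizontal axis), 1 point per locus, for loci before the gene in 1 panel and after it in the other, with gaps under 500 bp in purple. Points under 500 bp before the gene lean along the diagonal (r = 0.479, 79 loci), and those under 500 bp after it do not (r = -0.0157, 40 loci).

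Low neighbours were common beside the called loci, as beside the tested loci at large. Of the 28 called loci, 18 had a tested neighbour and 10 had one under 1 FPKM, of which 6 were listed at 0 in all libraries. Of the 431 tested loci with a neighbour, 33.2% had one under 1 FPKM, compared with 45.5% of all known genes. Among the 18 with a tested neighbour, 6 neighbours were called, 4 in the direction of the locus and 2 in the opposite one. Over all 288 loci with a tested neighbour 36 neighbours (12.5%) were called, and the difference between these shares was not tested. With the set as a term, 2 of the 4 missed the threshold and the other called neighbours stayed past it. These 2 lie beside the fall on chromosome 9 and the rise on chromosome 5 at 25397618 (limma adjusted p = 0.05581 and 0.08781). Beside the strongest rise, POPTR_0006s01720, which lies on the same strand 878 bp downstream of the locus, rose to 27.9 ± 1.56 FPKM in air-dried leaves, against 13.9 ± 1.04 FPKM in controls (SD, n = 3 each, log2 fold change 0.96, limma adjusted p = 0.001366). Beside the fall on chromosome 13, POPTR_0013s12370.r1, whose start lies 85 bp from the locus, fell to 3.44 ± 1.0 FPKM in air-dried leaves, against 8.81 ± 0.814 FPKM in controls (SD, n = 3 each, log2 fold change -1.16, limma adjusted p = 0.009298). In both cases the locus precedes the gene and the pair moved the same way. The rising locus on chromosome 1 (40731804 to 40732750) lies 305 bp before a gene that had 3209 ± 482 FPKM after drying and 1969 ± 319 FPKM in controls (SD, n = 3 each), a difference that missed the threshold (limma adjusted p = 0.08515). The rise on chromosome 2 (7896638 to 7900269) had a neighbour 5023 bp away that fell (log2 fold change -0.47, limma adjusted p = 0.04775), and the fall on chromosome 10 (10327872 to 10328308) had one 5977 bp away that rose (log2 fold change 0.94, limma adjusted p = 0.003154).

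A single locus was listed at 0 in every control and above 0 in every air-dried library, on chromosome 2 (22205050 to 22206714), with 0.294, 0.163 and 0.136 FPKM after drying. The reverse held at a single locus on chromosome 18 (12094758 to 12095208), listed at 0 in every air-dried library and at 0.900, 2.98 and 1.99 FPKM in the controls. Both loci had a mean under 1 FPKM, so neither was tested. How often such patterns occurred over all listed genes and loci was not counted.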

How the data were processed

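RNA was measured in leaf poly(A) libraries read as paired 100 bp ends, 3 air-dried and 3 control. The deposited values are FPKM per transcript, per the file headers. The submitters' processing notes name FastQC, TopHat and Cufflinks without versions, and no build or strand setting was given. The values carry no read counts, so depth is unknown and no counting interval is given. FPKM were summed over the transcripts of each gene or locus. Genes and loci with a mean of at least 1 FPKM were compared as log2(FPKM + 1) with limma 3.58.1 in R 4.3.3 (mean-variance trend, two-sided, Benjamini-Hochberg adjustment, threshold 0.05), and fold changes of low loci are understated by the pseudocount of 1. The fit was tested on simulated data. Loci, lists, library sets and tests were chosen with earlier results of these data known. Up to 12 largest rises and 12 largest falls were named, with the most abundant, longest, steadiest and most complex loci and those nearest the limits. Alternatives varied the pseudocount, filter, scaling, terms, locus limits and libraries. No sequence is shown, as no genome was used here.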

Additional observations from a re-analysis of the deposited data

How the results depend on the processing

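Of 379 values of the 23 named called loci under the alternatives, 279 kept the call, 100 lost it and 0 changed direction. The counts of called loci, 11 higher and 17 lower with all libraries, were 5 and 7 at a mean of at least 5 FPKM, a filter that removes loci from the test, and 5 and 8 when the transcript with the highest mean stood for the locus. Over all genes and loci that transcript gave 661 higher and 782 lower, against 1253 and 1663. A minimum span of 500 bp left 409 of the 667 loci, 270 of them tested, with 9 higher and 10 lower. A gap of at least 1000 bp left 366, 235 of them tested, with 7 higher and 11 lower. These counts were taken from the same fit, so they drop only because fewer loci remain. A gap of at least 2000 bp left 272. Leaving out 1 library at a time gave 5 to 8 higher and 6 to 23 lower loci, and 657 to 890 higher and 824 to 1125 lower genes and loci in all. The replicate numbers do not show which samples belong together: the deviations of same-numbered samples correlated at 0.187, -0.0961 and 0.292. The replicate block gave 7 higher and 17 lower loci, of which 15 were among the 28. Over all genes and loci it gave 924 higher and 1197 lower, against 1253 and 1663 without it. Among the abundant, uncalled loci 3 changed sign. The locus on chromosome 1 at 17002564 had log2 changes of 0.3747 with the set as a term and -1.105 to 0.1449 without 1 library. That on chromosome 8 at 4309128 had 0.1104 with the set as a term and -0.6674 to 0.05301 without 1 library. That on chromosome 5 at 21995633 had -0.3454 to 0.4067 without 1 library. The cause was not tested. Without depth, the precision of low values cannot be given.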
